A study of Drosophila melanogaster with 4 samples.

Results

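The transcripts described here form a block of the FlyBase numbering on 3L, the left arm of the third chromosome of *Drosophila melanogaster*. The block holds every row of the expression table whose transcript number lies from Mettl5 (FBtr0074991) to LanA (FBtr0077014), both included. It has 1591 of the 15634 rows, or 10.2%, and the other 14043 rows served as the comparison. RefSeq's list of fly genes (assembly Release 6 plus ISO1 MT) paired 5 of the 1591 rows with genes, namely Mettl5, SuUR, NaPi-III, vnc and LanA, and placed each of them on 3L. The other 1586 rows carry only their transcript number, so they are described by their place between these 5 genes, and that each of them lies on 3L was not checked.

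The series compared RNA of 2 untreated fly cell lines, each with 2 biological replicates on 1 single-colour NimbleGen array apiece. Kc is a line from embryos, grown here in serum-free medium. Mbn2 is a line from the blood cells of larvae carrying the tumour mutation l(2)mbn, grown here in a richer medium with 10% fetal calf serum. Line and medium cannot be told apart, and the design text does not say whether replicates were separate cultures, so the spread between them may be technical. None of the 13 blood cell markers and 4 muscle and epidermis markers looked for was among the identified rows, so the identity of the lines was not checked.

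FlyBase gave early transcript numbers largely in the order of genes along each chromosome arm, so a range of numbers approximates a piece of an arm. Genes that lie next to each other on an arm can share chromatin state, replication timing and regulatory elements, and for this reason expression is often looked at along chromosomes. The 5 identified genes have unrelated roles. Mettl5 is a methyltransferase that modifies adenosine in ribosomal RNA, SuUR is a chromatin protein that holds back replication of late-replicating DNA, and NaPi-III is a sodium-phosphate cotransporter that brings phosphate into the cell. The gene vnc encodes the catalytic subunit of an N-terminal acetyltransferase, which modifies the first residue of many new proteins, and LanA encodes an alpha chain of laminin, a main component of basement membranes.

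From one identified gene to the next, the numbering kept to the gene order of the RefSeq table, with an exception. The order of the rows between these genes was not checked. Array rows are transcripts and the RefSeq counts are genes, so similar counts do not show that those rows are in map order. Between Mettl5 and SuUR the array had 979 rows and RefSeq 960 protein-coding genes. Between NaPi-III and vnc there were 95 rows and 94 genes, and between vnc and LanA 505 rows and 464 genes. The numbers ran against the direction of the map, so Mettl5 marks the end nearer the centromere and LanA the end nearer the tip of the arm. The exception was the pair SuUR and NaPi-III, 7 rows apart on the array with 21 protein-coding genes between them in the table, whose numbers ran the other way.

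Across the block, transcripts were more often lower in Mbn2 than higher. All differences here are Mbn2 minus Kc on the log2 scale of the deposited RMA values, and a row is called when its limma p is under 0.05 after Benjamini-Hochberg adjustment across the 15634 rows. Of the 1591 rows, 490 (30.8%) were higher in Kc and 251 (15.8%) were higher in Mbn2, while 850 did not pass the test. Over the whole table the shares were 27.0% higher in Kc and 21.2% higher in Mbn2, and over the other 14043 rows 26.5% and 21.8%. The block thus had about as many calls in all (46.6%) as the whole table (48.2%) and the other rows (48.3%), with fewer of them towards Mbn2. With a difference of at least 2-fold required as well, 193 rows (12.1%) were higher in Kc and 128 (8.05%) in Mbn2, against 10.2% and 10.5% of the whole table and 9.96% and 10.7% of the other rows.

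Pooled over the block, the lean towards Kc lay in the median of the bright transcripts and not only in a few of them. It was not even along the numbering, as described below. The 664 rows of the block with a mean over 9 in both lines, a limit that keeps rows measured well above the bottom of the scale, had a median difference of -0.24. The 6034 other rows over that limit had a median of -0.09, and the whole table -0.11. In the block 67.0% of these rows had a negative difference, against 55.9% of the other rows. Of the 664, 284 (42.8%) were called higher in Kc and 116 (17.5%) higher in Mbn2, against 34.9% and 24.3% of all rows over the limit. The median was -0.26 to -0.23 in the 4 pairings of a single Mbn2 array with a single Kc array, whereas the replicates differed by -0.02 in Kc and -0.02 in Mbn2 (second minus first).

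To set the arrays side by side, each row over 9 was expressed as its deviation from its mean over the 4 arrays, and the median deviation of the other rows was subtracted from that of the block. This quantity was 0.05 and 0.10 in the Kc arrays, and -0.08 and -0.07 in the Mbn2 arrays. Both Kc arrays lay above both Mbn2 arrays. The exact two-sided permutation p was 0.333, the smallest that 2 arrays against 2 can give, so this permutation test cannot pass 0.05 in this design.

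Over the block as a whole, the median difference lay below that of the other rows in every range of expression from 6 upwards. Grouped by the mean over both lines, block rows between 9 and 10 had a median difference of -0.29, against -0.12 for the other rows in that range. Between 10 and 11 the medians were -0.25 and -0.11, between 11 and 12 they were -0.29 and -0.09, and between 12 and 13 they were -0.23 and -0.10. Above 13 they were -0.17 in 85 block rows and -0.04 in 900 other rows. Between 8 and 9 the medians were -0.52 in 93 block rows and -0.11 in 983 other rows, and between 6 and 8 they were -0.15 and -0.07. Below 6 both were near 0, at -0.03 and -0.01, where few rows of either kind passed the test. In the same ranges from 9 upwards, the rows after vnc alone had medians of 0.04, -0.16, -0.13, -0.02 and -0.07. These did not lie below the other rows in every range. Between 8 and 9, however, the 36 rows after vnc had a median of -0.46, and between 6 and 8 the 85 rows had -0.03.

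Along the numbering the block did not behave as one piece. Its rows were divided, in order, into 15 stretches of 100 and a last one of 91, each with 24 to 55 rows over 9 in both lines. The median difference was negative in 13 stretches, from Mettl5 through stretch 13, and positive in the last 3, which end at LanA. It ran from -0.70 in stretch 11, which holds vnc, to 0.12 in stretch 15. In all 16 stretches the 4 pairings of Mbn2 with Kc arrays had the same sign. In stretches 14 and 15, however, they went down to 0.03. The pairings of stretch 15 reached only 0.09, below the median of its line means, and in stretches 2 and 12 that median also lay outside the range of the pairings. The medians between replicates of a line lay between -0.07 and 0.03 in every stretch.

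**Figure D1:**
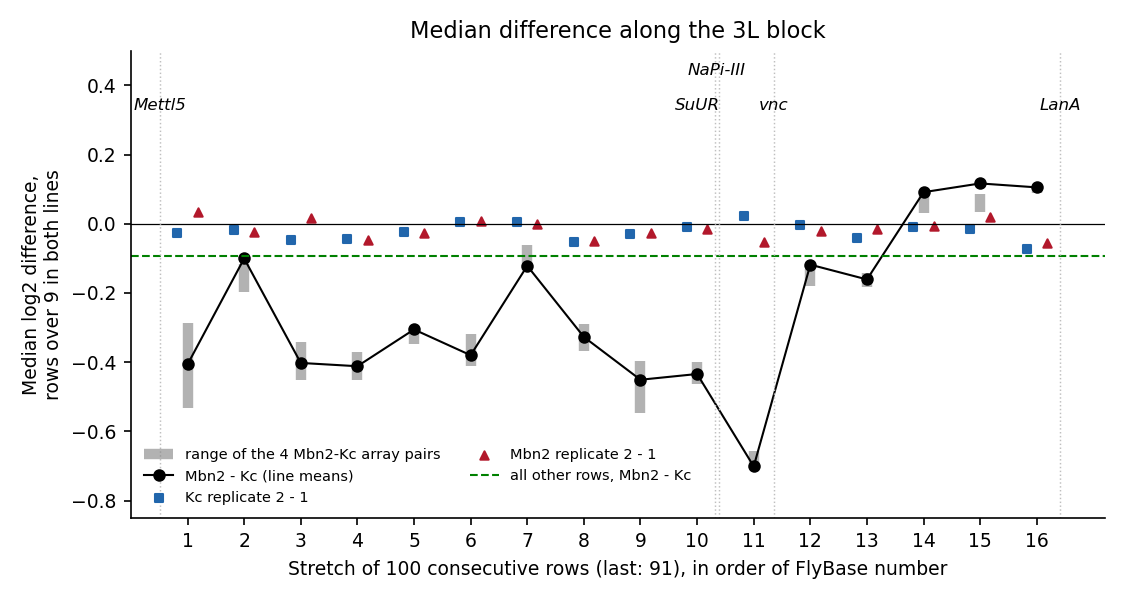
Median log2 difference in each of the 16 stretches of the block (x axis, in order of FlyBase number) over rows with a mean over 9 in both lines. Black points are the line means of Mbn2 minus Kc, grey bars the range of the 4 pairings of single arrays, squares and triangles the replicate differences within Kc and Mbn2, the dashed line the other rows of the table (-0.09), and dotted lines the identified genes. Stretch 11 lies lowest at -0.70 and stretches 14 to 16 lie above 0.

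The first 6 stretches, which start at Mettl5, had medians of -0.41, -0.10, -0.40, -0.41, -0.31 and -0.38. Stretch 7 came close to the rest of the table at -0.12, and stretches 8, 9 and 10 were at -0.33, -0.45 and -0.43. SuUR and NaPi-III both belong to stretch 10. In stretch 11 the quartiles of the differences were -1.03 and -0.20, so even its upper quartile was below 0. It was followed by values of -0.12 and -0.16 in stretches 12 and 13, and by 0.09, 0.12 and 0.11 in stretches 14, 15 and 16.

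The same division of the other rows gave 140 stretches with at least 20 rows over 9. Their medians ran from -0.58 to 0.58, with a middle value of -0.09. None of the 140 was as low as stretch 11 of the block, and 23 were at least as high as its highest stretch. Measured from the median of all bright rows, -0.11, 12 stretches of the block lay below and 4 above, since stretch 2 then changes side. With stretches of 50 rows, 28 of 32 were negative, and the lowest, the first 50 rows of stretch 11, was at -0.815 over 25 bright rows. At this length the LanA end was not positive throughout. The first 50 rows of stretch 14 were at -0.18 over 32 bright rows. The last 41 rows, which end at LanA, were at -0.17 over 9 bright rows, and the pieces between were at 0.04 to 0.24.

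The counts of calls over all rows of a stretch, dim ones included, are given here beside the medians. In 12 of 16 stretches more rows were higher in Kc than in Mbn2, in 3 the reverse held, and stretch 14 had 29 each way. The whole table leaned the same way (27.0% against 21.2%), and the matching count over the other stretches was not taken. Stretch 11 had 47 of 100 rows higher in Kc and 8 higher in Mbn2, and stretch 10 had 40 and 8. Stretch 9 had 36 higher in Kc and 6 higher in Mbn2. Stretch 13, although its bright rows had a negative median, had 31 rows towards Mbn2 and 16 towards Kc, and of these 24 and 9 differed by at least 2-fold. Among the 140 other stretches the share higher in Kc ran from 6.0% to 49.0%, with a middle value of 26.0%.

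**Figure D2:**
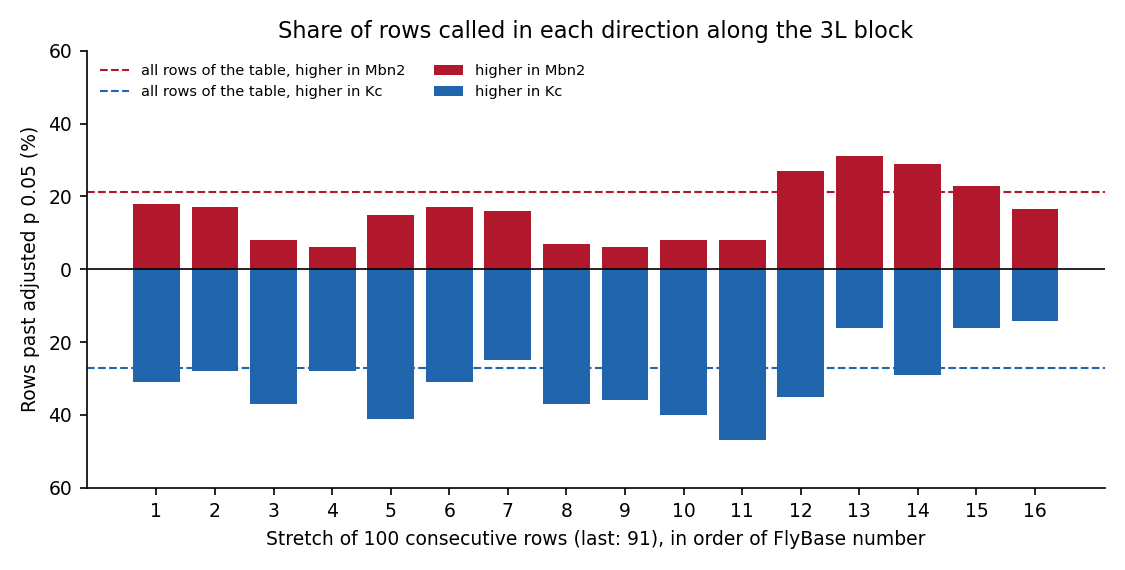
Share of rows in each stretch that passed an adjusted p of 0.05, in percent, with rows higher in Mbn2 drawn upwards and rows higher in Kc drawn downwards; dashed lines give the shares over the whole table (21.2% and 27.0%). Stretches 8 to 11 have 6% to 8% of rows higher in Mbn2, and stretches 12 to 15 have 23% to 31%.

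The gene vnc lies in stretch 11, the lowest, and the block was divided there after the values had been seen. The 2 segments are therefore described without a test. The lean towards Kc did not end at vnc, since most rows from there to the end of stretch 11 were called towards Kc. Those rows count in the second segment. From Mettl5 to vnc, 369 of 1085 rows (34.0%) were called towards Kc and 125 (11.5%) towards Mbn2. From the row after vnc to LanA, 121 of 506 rows (23.9%) were called towards Kc and 126 (24.9%) towards Mbn2. Over bright rows the median difference was -0.35 in the 446 of the first segment, a level 1.27 times higher in Kc, and -0.10 in the 218 of the second. In the first segment 72.9% of bright rows had a negative difference, and in the second 55.0%, against 55.9% of the other rows of the table. Without Kc replicate 1 the median of the second segment was -0.06, and its calls were 107 in each direction. Centred on the median of all bright rows, the first segment had 317 rows higher in Kc and 162 in Mbn2, and the second had 104 and 139. As shares these were 29.2% and 14.9% in the first segment and 20.6% and 27.5% in the second. The other rows of the table had 22.5% and 26.0% with that centring, so their lean towards Kc reversed, and the second segment was near this background. The centring adds 0.11 to every row, dim ones included, although the median of the other rows below 6 was only -0.01. Counts over all rows are thus moved towards Mbn2 by the centring itself.

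Pooled over its stretches, the first segment was displaced. Its lower and upper quartiles were -0.71 and 0.03, whereas those of the other rows of the table were -0.52 and 0.36. Those of the second segment were -0.42 and 0.44. The upper tail was displaced as well, with a 90th percentile of 0.45 in the first segment, 1.03 in the second and 0.88 in the other rows. Not every stretch of the first segment was displaced. Stretches 2 and 7 had medians of -0.10 and -0.12, and the quartiles of stretch 7 were -0.30 and 0.53.

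**Figure D3:**
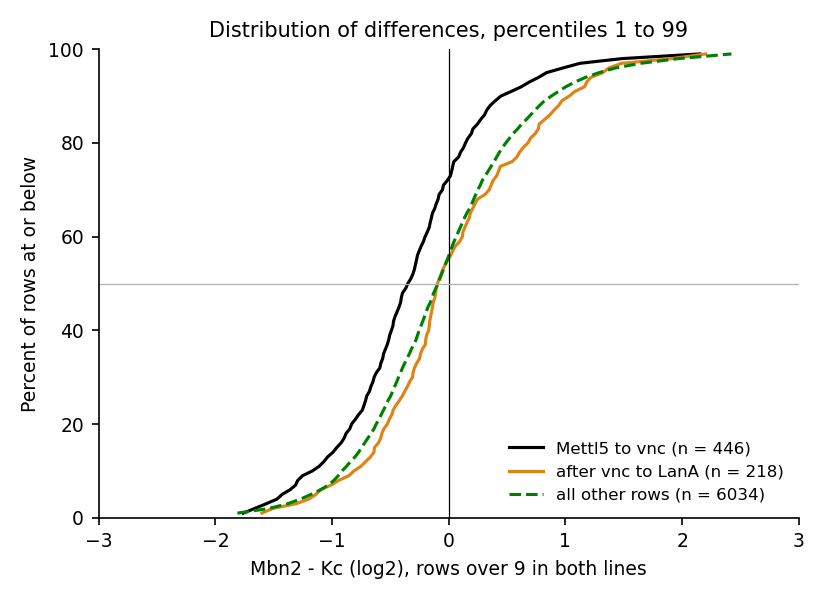
Percentiles 1 to 99 of the Mbn2 minus Kc difference (x axis, log2) over rows with a mean over 9 in both lines, for the segment from Mettl5 to vnc (446 rows), the segment after vnc to LanA (218 rows) and all other rows of the table (6034). The curve from Mettl5 to vnc lies to the left of the other curves over most of its length, with medians of -0.35, -0.10 and -0.09.

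The ends of the block are set by the rule and not by the values. The 100 rows numbered just before Mettl5 had a median difference of -0.36 over 53 bright rows, with 38 rows higher in Kc and 12 in Mbn2, similar to the first stretches of the block. The 100 rows numbered just after LanA had a median of -0.10 over 39 bright rows, with 33 higher in Kc and 25 in Mbn2. Which chromosome arm these neighbouring rows belong to was not examined.

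Dim rows were also unevenly spread. In the block 516 rows (32.4%) had a mean under 6 in both lines, against 29.0% of the other rows. They made up 35.7% of the segment from Mettl5 to vnc and 25.5% of the segment after vnc. Single stretches held from 13 of 100 such rows in stretch 14 to 46 of 100 in stretch 9. A mean over 8 in both lines was found for 753 rows (47.3%), against 49.4% of the other rows.

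The 5 identified transcripts are described in the order of the numbering. Of these, 3 were called higher in Kc, none was called higher in Mbn2 and 2 did not pass the test, where 27.0% and 21.2% of the whole table were called in these directions. The counts of neighbouring rows given with each gene are read against the same shares. Each stood alone in its own gene list, with no other member identified (8 laminin and basement membrane genes, 4 phosphate transporters, 7 N-terminal acetyltransferase subunits, 7 genes of SuUR and its heterochromatin partners, 5 ribosomal RNA methyltransferases), so nothing can be said of the lists.

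Mettl5, at the start of the block, read 10.86 and 10.84 in the Kc arrays and 10.08 and 10.13 in the Mbn2 arrays (log2). Both Kc arrays were above both Mbn2 arrays. The difference was -0.74 (standard error 0.10, 95% interval -0.99 to -0.49, limma adjusted p = 0.00197). The transcript also carries the reading frame CG42374, and the array value cannot tell the frames apart. Of the 10 rows that follow it, 1 was called towards each line and 8 did not pass, and 5 were dim in both lines.

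SuUR read 10.28 and 10.41 in Kc and 10.09 and 10.05 in Mbn2. The groups did not overlap, but the gap between them, 0.18, was only slightly wider than the 0.13 between the Kc replicates. The difference was -0.27 (standard error 0.11, 95% interval, not adjusted for the number of rows, -0.54 to -0.01), and the limma adjusted p was 0.0864. In the 20 rows around it, 10 on either side, 8 were called towards Kc and 2 towards Mbn2, and the median difference was -0.30. NaPi-III is one of these rows.

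NaPi-III read 11.60 and 11.71 in Kc and 5.48 and 5.26 in Mbn2. It was thus bright on both Kc arrays and dim (under 6) on both Mbn2 arrays. The difference between RMA values was -6.28 (standard error 0.12, limma adjusted p = 3.62e-06), and no fold is given because the level of a dim transcript is not known. The rows directly before and after it were also called higher in Kc, by the far smaller differences of -0.35 and -0.89. Of its 20 neighbours 10 were higher in Kc and 3 higher in Mbn2, with a median of -0.33, and 2 of them went from bright in Kc to dim in Mbn2. Only 7 rows lie between SuUR and NaPi-III, so many of these neighbours were also counted around SuUR.

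The transcript of vnc read 9.24 and 9.19 in Kc and 8.05 and 7.88 in Mbn2. The lines were separated by 1.14 log2 units, several times the 0.17 between the Mbn2 replicates. The difference was -1.25 (standard error 0.11, 95% interval -1.52 to -0.97, limma adjusted p = 0.000427), a level 2.37 times higher in Kc. This transcript carries CG42455 as well, and the frames cannot be told apart. Its surroundings had the highest share of calls towards Kc among the identified genes, at 12 of 20 rows and 1 towards Mbn2, with a median difference of -0.56.

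LanA, at the end of the block, read 14.93 and 14.80 in Kc and 14.74 and 14.84 in Mbn2. The values of the lines overlapped. The difference was -0.07 (95% interval -0.35 to 0.20, limma adjusted p = 0.638), and it turned to 0.04 when centred on all bright rows. None of the 10 rows before it passed the test, and 8 of them were dim in both lines.

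**Figure D4:**
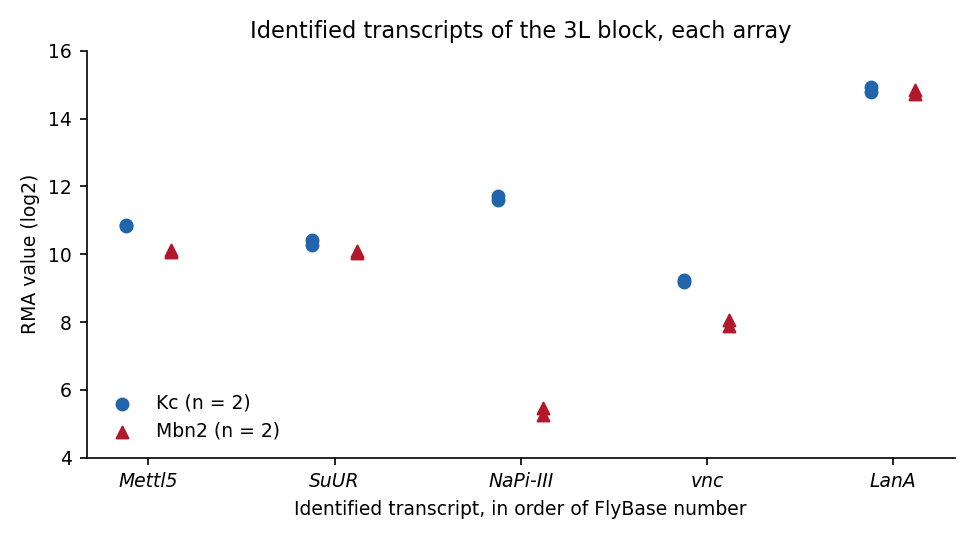
RMA values (log2) of the 5 identified transcripts in each of the 2 Kc arrays (circles) and 2 Mbn2 arrays (triangles), in the order of their FlyBase numbers. NaPi-III is at 11.60 and 11.71 in Kc and at 5.48 and 5.26 in Mbn2, and the LanA values of the lines overlap.

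Besides the shift of the medians, single transcripts differed far more. In the block 29 rows (1.82%) had a bright mean (over 8) in Kc and a dim one (under 6) in Mbn2, and 23 (1.45%) showed the reverse. Over the whole table these shares were 1.23% and 1.67%, and over the other rows 1.17% and 1.69%. The 29 had a median difference of -3.89 and the 23 a median of 5.26. Of the 29, 18 lay between Mettl5 and vnc (1.66% of the rows there) and 11 after vnc (2.17%). Of the 23, 11 (1.01%) and 12 (2.37%) did, so both shares were larger after vnc, a division made after the values were seen. Neighbouring rows were counted singly, and whether they come from separate genes was not known. After vnc, all rows of a run of 5 towards Kc and of a run of 4 towards Mbn2 (both described below) are in these counts. Runs before vnc, some of which also hold such rows, had at most 3 rows.

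The 2 rows per direction with RMA values farthest apart included NaPi-III, and since each was dim in one line their order is not known. The other one towards Kc, FBtr0076116, 74 rows before NaPi-III in the same stretch, read 12.49 and 12.38 in Kc and 4.87 in both Mbn2 arrays, a difference of -7.57. Towards Mbn2, FBtr0076525 read 5.16 and 5.23 in Kc and 13.27 and 13.72 in Mbn2, a difference of 8.30. FBtr0075671 read 5.17 and 4.98 in Kc and 12.97 and 12.94 in Mbn2, a difference of 7.89. Each of them was dim in one line and bright in the other, with limma adjusted p of 2.53e-06 to 3.68e-06, and the files do not pair these 3 rows with a gene.

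Some large differences sat in neighbouring rows. At least 4-fold differences were called for 53 rows (3.33%) higher in Kc and 64 (4.02%) higher in Mbn2, against 3.24% and 4.81% of the whole table. Of these 117 rows, 37 (31.6%) belonged to 15 runs of 2 or more consecutive rows with the same direction, 6 towards Kc and 9 towards Mbn2. Among all rows with such differences, in the block or not, 40.7% lay in runs, and rows in runs made up 3.27% of the whole table. Of the 15 runs, 11 were pairs, and the longest had 5 rows, against 9 in the whole table.

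The run of 5 began 22 rows after vnc, in stretch 12, and was picked for its length after the values were seen. Its rows, FBtr0076376 to FBtr0076381, lay between 8.49 and 9.26 in the mean of Kc and between 4.84 and 5.99 in that of Mbn2. Their differences ran from -4.31 to -3.08, all towards Kc, with limma adjusted p of at most 8.71e-05. The next longest, likewise picked, had 4 rows towards Mbn2, FBtr0076525 to FBtr0076530, 136 rows after vnc. Its Kc means lay between 4.998 and 5.87 and its Mbn2 means between 10.13 and 13.50, and its 4 differences between RMA values lay between 4.26 and 8.30. These runs of opposite direction thus lay within 118 rows of each other.

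Whether the rows of a run come from separate genes was not known. Values within 0.25 of each other on all 4 arrays were found for 3 of the 22 neighbouring pairs inside runs. They were found for 77 of all 1590 neighbouring pairs of the block, and for 19 of 1586 pairs of rows 5 places apart.

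**Figure D5:**
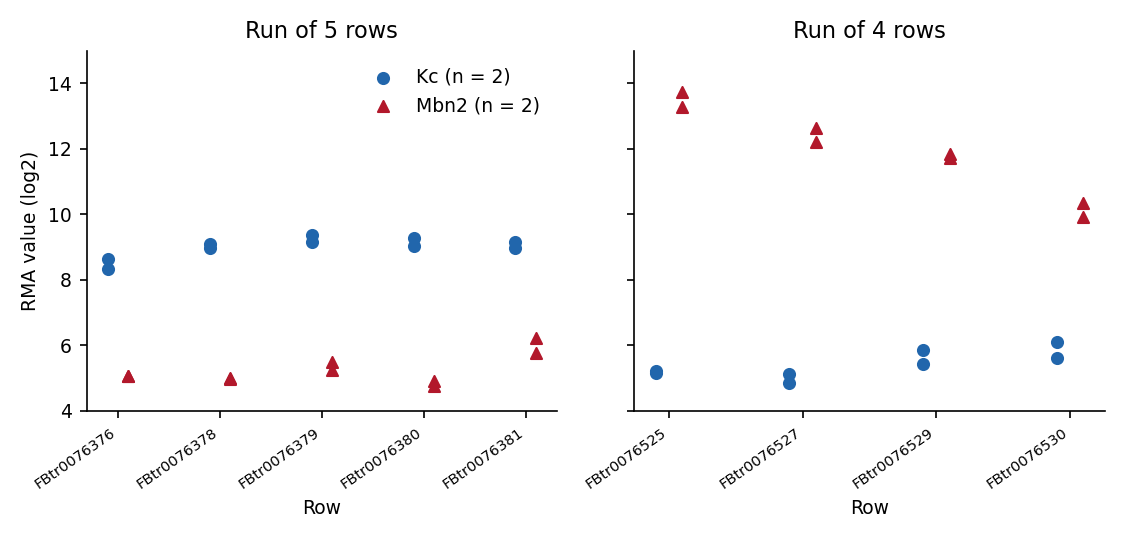
RMA values (log2) in each Kc array (circles) and Mbn2 array (triangles) for the rows of the longest run towards Kc (left, 5 rows) and of the longest run towards Mbn2 (right, 4 rows), in order of FlyBase number. On the left the Kc arrays lie above the Mbn2 arrays in every row, and on the right below.

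Neighbouring rows that were both called had the same direction in 316 of 436 cases (72.5%) in the block. Over the whole table this was so for 74.7% of such pairs, so in this respect the block was close to the background.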

How the data were processed

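Each of the 4 samples gave 1 array. The authors deposited log2 expression values made with RMA, per the submitters' processing notes. The sources used here do not give the RMA version, its settings or the genome build. Quantile steps such as RMA's remove differences in total signal, so differences are relative to the other transcripts. Sample medians lay between 8.53 and 8.62. Precision is limited by the small number of arrays.

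From these values, limma 3.58.1 in R 4.3.3 (lmFit, eBayes, two-sided, no covariate) was fitted over all rows, and checked on simulated data. Medians and counts were taken in Python 3.11.15 with pandas 2.3.3. Each identified row was named, plus the 2 rows per direction farthest apart among calls without overlap between the lines. Members, lists and limits were chosen with earlier results of these data known. Deviations from the line means were not shared by same-numbered samples (across transcripts, r = -0.05). The planned promoter motif search was not run, since no sequences were used here.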

Additional observations from a re-analysis of the deposited data

How the results depend on the processing

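The 3 calls among the identified transcripts (Mettl5, NaPi-III, vnc) kept direction and call under the 9 alternatives run on them, with the highest adjusted p, 0.033, for vnc without moderation of the variances. SuUR passed under none (adjusted p 0.0553 to 0.273). LanA was at 0.037 when centred on bright rows, because that centring adds 0.11 to every difference. Without moderation, 241 block rows were higher in Kc and 130 in Mbn2 (176 and 59 up to vnc, 65 and 71 after it). With treat against a fold of 1.5, 185 and 128 were (134 and 61 up to vnc, 51 and 67 after it). The replicate number shares no known source; with it as a block, 461 rows were higher in Kc and 237 in Mbn2. Without single arrays, counts stayed within 1.5 times, and the median difference of bright rows was -0.26 to -0.23 in the block, -0.36 to -0.33 up to vnc and -0.098 to -0.065 after it. That median was -0.21 over rows above 10 and -0.11 over all block rows. Stretches of 50 rows ran from -0.815 to 0.24. With rows below the table's median left out, 8 rows switched from dim in Kc to bright in Mbn2 and 1 the other way, as the filter takes out low means. Setting dim under 5.5 and bright over 9 left 10 and 11. Other causes were not tested. The files used here give no background level, so the size of differences involving dim values is unknown.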
